A study of Mus musculus with 6 samples.

Results

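The genes of 10 integrin subunits, Itga1, Itga2, Itga5, Itga6, Itga9, Itgav, Itgb1, Itgb3, Itgb4 and Itgb5, were followed in mammary endothelial cells. A probe set was taken for a subunit where the platform annotation names that gene and no other. The 10 genes, out of 18193 with such a probe set, had 30 probe sets in all, and the brightest probe set of a gene, by its average on the 6 arrays, stands for it below. The mice behind all 6 samples were FVB/N animals of the PyMT tumor model, in which the MMTV promoter drives polyoma middle T antigen in mammary epithelium, at an age of 9 weeks, and their cells were selected by CD31. The 3 control samples were PyMT;Ets2db/loxP. The 3 samples called deleted were PyMT;Fsp-cre;Ets2db/loxP, in which Cre under the promoter of Fsp1 (S100a4) removes the floxed allele of the transcription factor Ets2 in fibroblasts. Every mouse of both groups also carried the Ets2db allele, a conventional knockout of the DNA-binding domain, in all of its cells. The source field of the control samples says that no oncogene was present, whereas PyMT stands in their genotype field, which was followed here. The comparison asks how Ets2 in tumor fibroblasts bears on the expression of adhesion receptors in neighbouring endothelial cells.

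Integrins are receptors of the cell surface made of 1 alpha and 1 beta subunit, and they join the extracellular matrix to the actin cytoskeleton. The pair decides the ligand. Itga1 and Itga2 with Itgb1 bind collagens, Itga5 with Itgb1 binds fibronectin, Itga6 with Itgb1 or Itgb4 binds laminins, Itga9 with Itgb1 binds tenascin and fibronectin, and Itgav with Itgb3 or Itgb5 binds vitronectin and other ligands with an RGD motif. In blood vessels these receptors anchor endothelial cells to the basement membrane and act in sprouting, and Itga9 is known for its part in lymphatic valves.

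No integrin subunit differed between the groups beyond the spread of the arrays. In limma's moderated test 0 of the 10 subunits passed at an adjusted p under 0.05, as did 0% of all 45037 probe sets tested. At an unadjusted p under 0.05 there were 0 subunits, against 1.79% of all genes, and the smallest unadjusted p of a subunit in limma's fit was 0.208. The study's own thresholds, more than 2-fold and an unadjusted p under 0.05, were reached by 0 subunits and by 0.129% of all probe sets. The control and deleted arrays overlapped for all 10 subunits, while the deleted arrays lay wholly below the controls in 2.7% of all genes and wholly above them in 3.36%. An exact two-sided permutation test over the arrays gave p-values from 0.4 to 1 for single subunits, where 3 arrays against 3 allow none below 0.1.

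Of the 10 subunits, 6 were lower in the deleted samples, against 49.1% of all genes. The differences, always deleted minus control in log2 units, ran from -0.34 for Itgb5 to 0.46 for Itga2. Their median was -0.03, beside 0.00423 over all genes. The median size of a difference was 0.156 over the subunits and 0.113 over all genes. The 95% intervals of 9 subunits lay within a 2-fold difference in either direction, as did those of 89.5% of all genes. The exception was Itga2, whose interval reached 1.25.

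**Figure D1:**
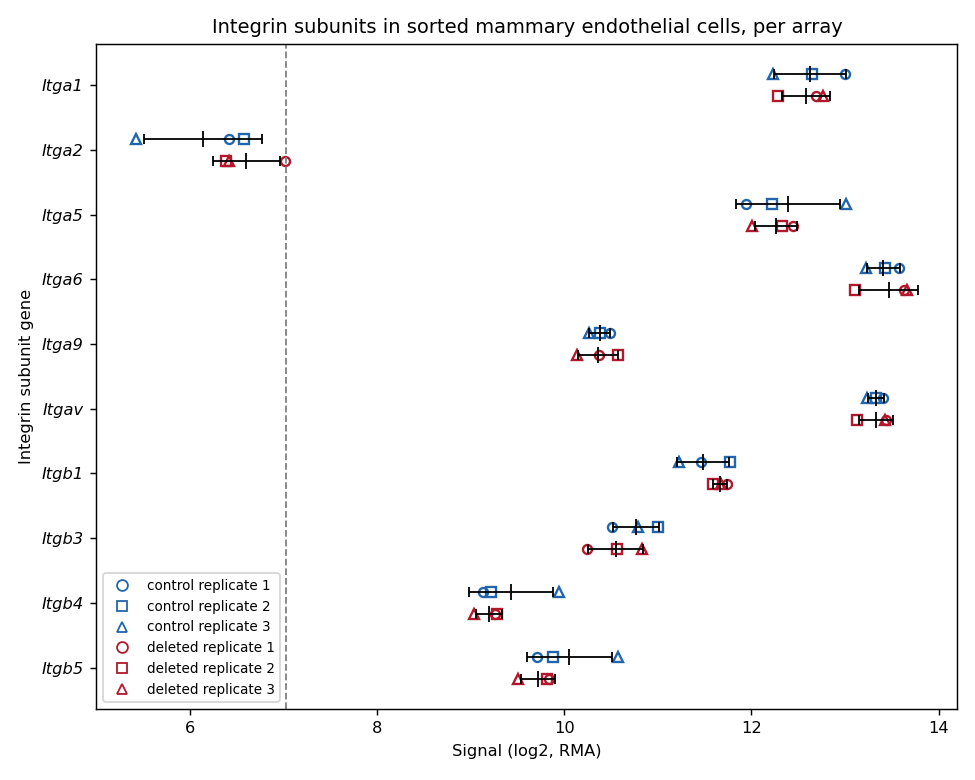
Signal of each integrin subunit (log2, horizontal axis) on the 6 arrays, by the probe set that stands for the gene, with control arrays in blue, deleted arrays in red, a marker shape for each replicate, and bars in black that show mean and SD (n = 3). Control and deleted markers overlap in every row. Itga2 lies to the left of the dashed line, the median of all probe sets at 7.03.

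The replicate arrays differed more from each other than the groups did. Control replicate 3 stood apart on the first principal component of all probe sets, at 70.2 against -37.1 to 35.8 for the other arrays. It had the widest gap between 3' and 5' control probe sets of Gapdh, 1.31 against 0.75 to 1.01, a measure of RNA quality. It also had the lowest Pecam1 signal, the transcript of CD31, at 10.83 against 11.27 to 11.93. This array was the highest or lowest of the 6 at 22 of the 30 integrin probe sets, 73.3%, and at 48% of all probe sets tested. Deleted replicate 3 was the highest or lowest at 60% of the integrin probe sets and at 30.5% of all. Probe sets of the same gene are not independent readings. By the probe set that stands for a gene, control replicate 3 was extreme for 60% of the 10 subunits and 49.3% of all genes. For deleted replicate 3 these shares were 40% and 31%. Values without 1 array are given below where the difference of a subunit changes sign or size with it. The part that RNA quality has in these values was not tested.

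Among collagen receptors, Itga1 was level and Itga2 was dim. Itga1 read 13.00, 12.65 and 12.23 in control replicates 1 to 3 and 12.69, 12.29 and 12.77 in deleted replicates 1 to 3. The highest and the lowest of these values both belonged to the control group. Itga1 differed by -0.04 with an SE of 0.23, and its second probe set by -0.01. Its sign was not settled, since the difference was 0.14 without control replicate 1 and -0.24 without control replicate 3.

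Itga2, the subunit of a collagen and laminin receptor found on platelets, epithelium and some vessels, had the largest difference in size of the 10. Its single probe set read 6.43, 6.58 and 5.42 in control and 7.02, 6.39 and 6.42 in deleted samples. Control replicate 3 was far below the other 5 arrays, which lay close together apart from a higher value in deleted replicate 1. Control samples averaged 6.14 ± 0.63 and deleted samples 6.61 ± 0.36 (SD, n = 3), so that Itga2 differed by 0.46 (95% interval -0.33 to 1.25). Without control replicate 3 the difference was 0.10. This probe set is among the dimmer ones of the array, at the 42.1 percentile of signal, where RMA values hold more background.

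Itga5, the fibronectin receptor subunit needed for vessel formation in the embryo, also took an extreme value on that array, in the other direction. It read 11.94, 12.22 and 13.01 in control and 12.44, 12.33 and 12.01 in deleted samples. Control replicate 3 was the highest and control replicate 1 the lowest, so the deleted arrays lay within the control range. The difference of -0.13 (SE 0.29) turned to 0.18 without control replicate 3. The other 3 Itga5 probe sets differed by -0.02, 0.22 and 0.43, and at each of them control replicate 3 was below the mean of the 6 arrays. The brightest probe set carries the suffix _s_at, given to probe sets that can match several transcripts.

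Itga6, the laminin receptor subunit shared by endothelium and basal epithelium, differed little at its bright probe set. There it read 13.58, 13.43 and 13.22 in control and 13.63, 13.11 and 13.67 in deleted samples. Deleted replicate 2 gave the lowest value and deleted replicates 1 and 3 the highest, with all controls between them. Itga6 differed by 0.06 (95% interval -0.41 to 0.52), and by -0.04 without either control replicate 3 or deleted replicate 3. The dimmer Itga6 probe set read 11.10, 11.10 and 10.07 in control and 11.24, 10.49 and 11.29 in deleted samples. At both probe sets the low arrays were control replicate 3 and deleted replicate 2.

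Itga9 and Itgav were the steadiest of the subunits. Itga9 read 10.49, 10.38 and 10.27 in control and 10.37, 10.57 and 10.14 in deleted samples, a difference of -0.02 (SE 0.16) that turned to 0.09 without deleted replicate 3. Its other probe sets differed by -0.25 and 0.05. Itgav, the alpha subunit of the vitronectin receptors, read 13.41, 13.33 and 13.24 in control and 13.44, 13.13 and 13.43 in deleted samples. Its difference of 0.0044 had a 95% interval from -0.35 to 0.35, and its sign turned when control replicate 3 (-0.04), deleted replicate 1 (-0.05) or deleted replicate 3 (-0.05) was left out. The pooled SD within groups was 0.139, beside a median of 0.223 over all genes. The 4 dimmer Itgav probe sets differed by 0.06 to 0.28, and at 1 of them deleted replicate 3 stood out at 7.54 against at most 6.81 on the others.

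Itgb1, the beta subunit that pairs with most alpha subunits of this family, was slightly higher in the deleted samples at 5 of its 6 probe sets, none of which passed the test. The brightest read 11.46, 11.77 and 11.22 in control and 11.74, 11.59 and 11.67 in deleted samples. The deleted arrays were tightly grouped (11.67 ± 0.07, SD, n = 3) inside the wider range of the controls (11.48 ± 0.28, SD, n = 3). The difference was 0.18 with an SE of 0.17, and 0.05 without control replicate 3.

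The largest differences of all 30 were at 2 dim Itgb1 probe sets, and these rested on control replicate 3 as well. A first read 6.32, 6.87 and 5.37 in control and 6.75, 6.69 and 7.16 in deleted samples, which differed by 0.68 (95% interval -0.18 to 1.55). A second read 5.81, 6.66 and 4.996 in control and 6.18, 6.33 and 6.99 in deleted samples, also a difference of 0.68. Control replicate 3 was the lowest array at both and deleted replicate 3 the highest, while control replicate 2 lay among the deleted arrays. Without control replicate 3 each of the 2 differences was 0.27. The first carries the suffix _x_at, described below with Itgb5. So does a further Itgb1 probe set, which differed by 0.0040, and by -0.16 without control replicate 3. The sixth Itgb1 probe set read 2.62 to 2.94 on all arrays, at the 0.291 percentile of signal, and differed by -0.13.

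**Figure D2:**
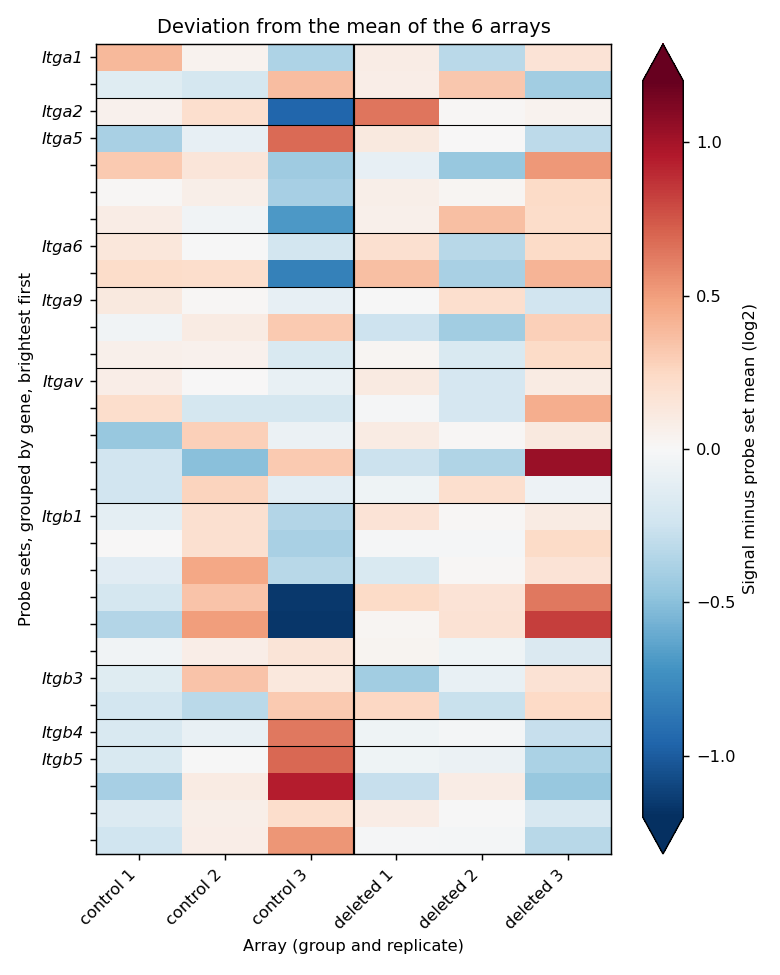
Deviation of each of the 30 integrin probe sets from its mean over the 6 arrays (log2, color), with arrays in columns and probe sets in rows, grouped by gene with the brightest first. Control replicate 3 is the highest or lowest array in 22 rows, low at the dim Itgb1 probe sets with the largest differences and high at Itgb4 and Itgb5. No column block separates control from deleted arrays.

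Itgb3, the partner of Itgav in the vitronectin receptor of sprouting endothelium and of Itga2b on platelets, did not depend on control replicate 3, without which it differed by -0.21. It read 10.52, 11.00 and 10.78 in control and 10.24, 10.57 and 10.84 in deleted samples. Deleted replicate 1 was the lowest and control replicate 2 the highest, and the third arrays of both groups were alike. The difference was -0.22 with a 95% interval from -0.70 to 0.27, and -0.07 without deleted replicate 1. The dim second Itgb3 probe set differed by 0.15.

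Itgb4, which with Itga6 forms the laminin receptor of hemidesmosomes, and Itgb5, which pairs with Itgav, shared a high value in control replicate 3. Itgb4 read 9.13, 9.22 and 9.95 in control and 9.26, 9.29 and 9.04 in deleted samples. The other 5 arrays spanned only a narrow range, and the difference of -0.24 (SE 0.24) became 0.02 without that array.

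Itgb5 had the largest difference below 0, and it was lower at all 4 of its probe sets. The brightest read 9.71, 9.88 and 10.57 in control and 9.83, 9.82 and 9.51 in deleted samples. Deleted replicates 1 and 2 lay between control replicates 1 and 2, and the separation of the means came from control replicate 3 and deleted replicate 3. Control samples averaged 10.06 ± 0.46 and deleted samples 9.72 ± 0.18 (SD, n = 3), and the difference of -0.34 (95% interval -0.91 to 0.24) shrank to -0.08 without control replicate 3. The other probe sets of Itgb5 differed by -0.43, -0.25 and -0.08. The brightest and the one at -0.43 carry the suffix _x_at, given where some probes may match unrelated transcripts.

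Over all 30 integrin probe sets, 13 were lower and 17 higher in the deleted samples, and every 95% interval held 0. None had groups without overlap, and the smallest unadjusted p in limma's fit was 0.1, for a dim Itga5 probe set. Of the 8 subunits with several probe sets, 4 had probe sets of both signs, namely Itga5, Itga9, Itgb1 and Itgb3. For Itgb1 the only lower one was the dimmest of the 30. Probe sets of Itgav and Itga6 were all higher and those of Itga1 and Itgb5 all lower, each by less than the spread.

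**Figure D3:**
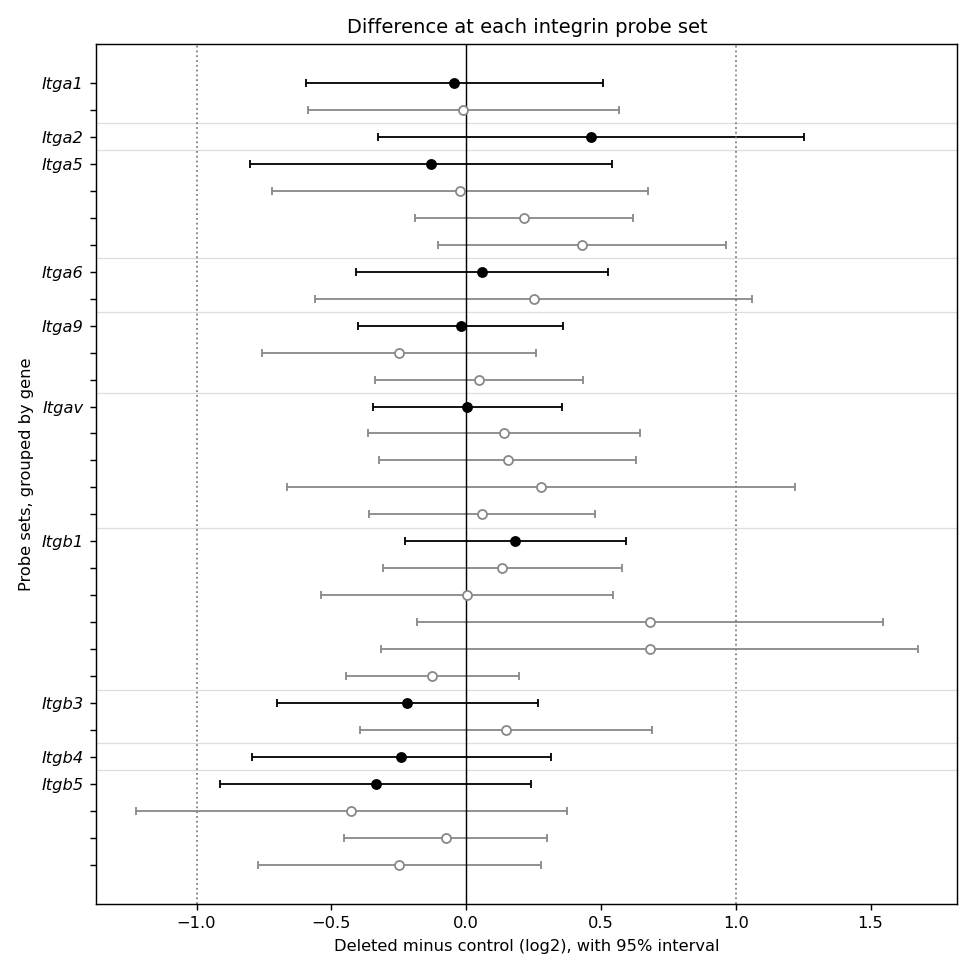
Difference between deleted and control arrays at each of the 30 integrin probe sets (log2, horizontal axis) with its 95% interval, grouped by gene, with filled black points for the probe set that stands for the gene and open grey points for the others. Dotted lines mark a 2-fold difference. Every interval crosses 0, and the 2 points farthest to the right, at 0.68, are dim Itgb1 probe sets.

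How closely replicates lay together differed among the subunits. The pooled SD within groups was 0.139 for Itgav, 0.172 for Itga9 and 0.202 for Itgb1, all below the median of 0.223 over all genes. It was 0.256 for Itga6, 0.271 for Itgb3, 0.327 for Itga1, 0.331 for Itgb4 and 0.348 for Itgb5. Itga5 and Itga2 spread most, at 0.422 and 0.511, which placed Itga2 at the 92.3 percentile of all genes. A difference would thus be seen more finely for Itgav, whose interval reached 0.35 to either side, than for Itga2. Averaged over the 10 subunits, the deviation of an array from the mean of all 6 was -0.02 to 0.06 in control and -0.08 to 0.08 in deleted arrays, so the deleted arrays enclosed the controls.

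Subunits that pair in 1 receptor are set side by side here, as differences. In the laminin receptor of hemidesmosomes Itga6 differed by 0.06 and Itgb4 by -0.24. In the vitronectin receptors Itgav differed by 0.0044, Itgb3 by -0.22 and Itgb5 by -0.34. In the fibronectin receptor Itga5 differed by -0.13 and Itgb1 by 0.18. Differences between partners were not tested, and the interval of each subunit held 0.

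**Figure D4:**
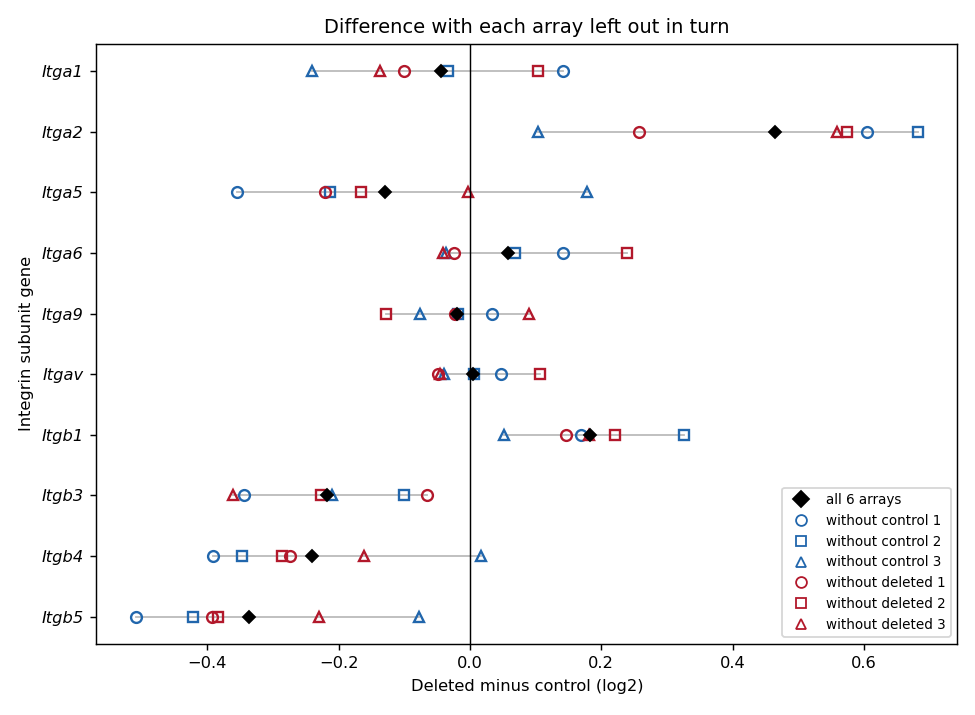
Difference between deleted and control samples for each integrin subunit (log2, horizontal axis) over all 6 arrays (black diamonds) and with each array left out in turn (open markers, blue for a control and red for a deleted array). Without control replicate 3, the blue triangles, Itga2 falls to 0.10, Itgb5 moves to -0.08 and Itgb4 to 0.02, and only Itga2, Itgb1, Itgb3 and Itgb5 keep their sign throughout.

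No further integrin gene passed the test. Of 17 further subunits, 15 had a probe set with 1 gene, 6 of them lower and 9 higher, with a median difference of 0.02, and 0 passed limma's test at an adjusted or an unadjusted p under 0.05. Of the 15, 9 lay below the median signal, Itga4 among them, where RMA values hold more background. The largest differences were those of Itga7, a laminin receptor subunit of muscle, at 0.37 (SE 0.21), and Itgae, a subunit of intraepithelial lymphocytes, at 0.34 (SE 0.38, 95% interval -0.56 to 1.24). Itgae turned to -0.02 without deleted replicate 2. Itga4, the partner of Itgb1 that binds VCAM-1, read 6.20, 5.42 and 6.72 in control and 4.37, 6.77 and 6.55 in deleted samples, and its difference of -0.22 (95% interval -1.75 to 1.32) became 0.55 without deleted replicate 1. The laminin receptor subunit Itga3 differed by -0.01 and Itgb8 by -0.21.

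Genes that act on integrins inside the cell were counted next. Of 28 measured activators and adhesion adaptors, 16 were lower and 12 higher, with a median of -0.02, and 0 passed at an adjusted or an unadjusted p under 0.05 in limma's test. Fermt3, the kindlin of blood cells, differed by -0.61 (SE 0.42) and the adaptor Bcar1 by -0.43 (SE 0.38). Without control replicate 3 they differed by -0.28 and 0.02. Tln1, the talin that binds beta tails, differed by -0.24 and turned to 0.09 without control replicate 3, and Fermt2, the kindlin of endothelium, differed by 0.11. The 1 gene of this list without overlap was the adaptor Lims1, at 0.19, named after its values were seen.

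Of 8 integrin-associated membrane proteins, 3 were lower and 5 higher. Plaur, the urokinase receptor, read 8.24, 8.31 and 8.11 in control and 8.63, 8.58 and 8.59 in deleted samples. All deleted arrays were above all controls, and they agreed closely. The difference was 0.38 with an SE of 0.13 and an unadjusted p of 0.0215 in limma's fit, and with 1 array left out it stayed between 0.33 and 0.43. It did not pass after adjustment (adjusted p = 0.9999, limma). Slc3a2, the CD98 heavy chain, differed by -0.14.

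The ligands of these receptors were measured on the same arrays. Among 10 laminin chains 4 were lower and 6 higher, with a median of 0.05, and the endothelial chain Lama4 differed by 0.10. Lama1 differed by -0.46 and Lama2, the chain of muscle and mesenchyme, by -0.35 without overlap, which shrank to -0.22 and -0.17 without control replicate 3. Of 5 collagen chains 4 were lower, with a median of -0.27, and the basement membrane chains Col4a1 and Col4a2, named after their values were seen, differed by 0.0042 and -0.01. The fibrillar chain Col1a2 read 11.80, 11.72 and 12.01 in control and 11.55, 11.20 and 11.20 in deleted samples, a difference of -0.53 (SE 0.16, unadjusted p = 0.0141, adjusted p = 0.9999 in limma's fit), and Col1a1 differed by -0.38, both without overlap.

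Of 15 further ligands, 8 were lower and 7 higher, with a median of -0.05. Fn1, which encodes fibronectin, read 10.73, 10.60 and 10.88 in control and 10.53, 9.99 and 10.04 in deleted samples, so that every deleted array was below every control. It differed by -0.55 (SE 0.19, unadjusted p = 0.0215, adjusted p = 0.9999 in limma's fit), and by -0.45 to -0.73 with 1 array left out, while its receptor subunits Itga5 and Itgb1 differed by -0.13 and 0.18. The Itga9 ligand Svep1 differed by -0.50. Over all 6 lists of adhesion genes, 3 of 81 measured genes had an unadjusted p under 0.05 in limma's fit (1.79% of all genes did), 4 had deleted arrays wholly below the controls (2.7% of all genes) and 2 wholly above (3.36% of all genes), and 0 passed after adjustment.

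**Figure D5:**
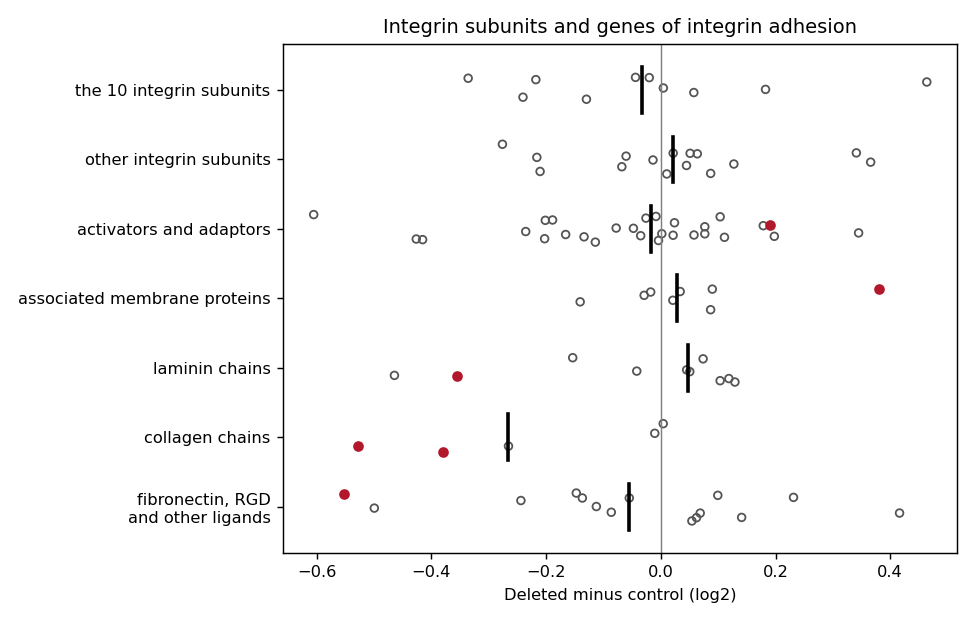
Difference between deleted and control samples (log2, horizontal axis) for each gene of the 10 integrin subunits and of 6 lists of adhesion genes, with filled red points where the groups do not overlap and black bars for the median of each list. None of the 10 subunits is red, and the red points to the left are Fn1, Col1a2, Col1a1 and Lama2.

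Several of these genes are also made by other cells of the gland, and markers of such cells were measured beside them. The 15 pan-endothelial markers were all above the median signal, but so were all 5 basal epithelial, all 9 luminal epithelial and all 6 lymphatic markers, and 11 of 12 macrophage markers. So were 10 of 11 pericyte and smooth muscle, 9 of 11 leukocyte and 7 of 11 fibroblast markers. The median is that of all 45037 probe sets, while each marker is read by its brightest probe set, which raises these counts. The share of all genes above that median is not given here. The epithelial surface protein Epcam read 12.00 to 12.54 on the 6 arrays and differed by 0.11. Genes of epithelium and macrophages thus gave signal in both groups, but these counts do not show how many such cells were sorted. In bulk samples fewer cells of a type and less RNA per cell cannot be told apart. The part of these cells in the integrin and matrix values was not tested.

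All 11 fibroblast markers were lower in the deleted samples (Col14a1 differed by -1.16, Dpep1 by -1.13 and Pdgfra by -0.59). Their list score, the mean deviation of the markers on an array, was 0.12 to 0.66 in control and -0.45 to -0.22 in deleted arrays. Fn1, Col1a1, Col1a2 and Lama2 were lower as well. They were highest in control replicate 3, as were the fibroblast markers Pdgfra and Dpep1. The score was highest in control replicate 1, as were Col14a1 and Ogn. Col14a1, Dpep1 and Ogn, and C1qb among the macrophage markers, are genes that the study called on these same arrays. Their lower values here are thus no separate evidence. Left out in turn, the arrays gave 9 lower fibroblast markers without control replicate 1 and 10 or 11 otherwise. All 12 macrophage markers were lower, with scores from 0.04 to 0.73 in control and from -0.61 to -0.07 in deleted arrays. Without deleted replicate 1, and likewise without deleted replicate 3, 11 of the 12 were lower. Control replicate 3 was highest for this score, and for 4891 of all 18193 genes, Itgb5 among them. C1qb differed by -1.30, Mrc1 by -0.93 and Adgre1 by -0.91, and by -0.85, -0.65 and -0.63 without control replicate 3. The basal epithelial score was 0.42 in control replicate 3, where Itgb4 was high, and -0.17 to 0.08 on the other arrays. Of its 5 markers, 4 were lower and 1 higher. Krt5 differed by -0.38, Krt17 by -0.27 and Krt14 by -0.13, and by -0.04, -0.03 and 0.04 without control replicate 3. Trp63 differed by -0.17 and Oxtr by 0.14, and by -0.14 and 0.21 without control replicate 3. That array was the highest for the keratins but not for Trp63 or Oxtr. The pan-endothelial score was lowest in control replicate 3, at -0.24, though Robo4 and Erg were highest on that array. Of the 15 markers, 12 were higher and 3 lower in the deleted samples. Pecam1 differed by 0.39 and Esam by 0.30, and by 0.16 and 0.03 without control replicate 3.

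All 6 lymphatic markers were lower beside an Itga9 difference of -0.02, with overlapping scores from -0.20 to 0.62 in control and from -0.60 to -0.04 in deleted arrays (Reln differed by -0.94, Lyve1 by -0.62 and Prox1 by -0.36). Without control replicate 1, 5 of the 6 were lower (5 also without control replicate 3), Lyve1 differed by -0.29 and Prox1 by 0.01. The 7 platelet markers were set beside Itga2 and Itgb3 because platelets carry both. Only 2 of these markers were above the median signal. Their scores overlapped, from -0.10 to 0.16 in control and from -0.20 to 0.18 in deleted arrays (Gp1bb differed by -0.54, Gp5 by 0.34 and Pf4 by -0.21). Scores also overlapped for 11 leukocyte markers, 9 of them lower. Among these Cd48 differed by -0.80, and by -0.06 without deleted replicate 1, while Laptm5 differed by -0.51 and Ptprc by -0.43, and by -0.22 and -0.17 without control replicate 3. Scores overlapped as well for 9 luminal markers (Cldn4 at 0.23, or 0.09 when deleted replicate 2 was left out, and Cdh1 at -0.22, or -0.09 when deleted replicate 1 was) and for 11 pericyte and smooth muscle markers, 9 of them higher. Tagln differed by 0.62, Myh11 by 0.41 and Pdgfrb by 0.22, and by 0.39, 0.48 and 0.01 without control replicate 3, with Myh11 at 0.19 without control replicate 2.

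Ets2 itself differed by 0.02 at each of its 3 probe sets in the sorted cells. The Cre line targets fibroblasts, so these values do not check the deletion.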

How the data were processed

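RNA of the CD31-sorted cells of each sample was hybridized to 1 Affymetrix mouse expression array. The study describes the 3 samples of a group as biological replicates. The authors deposited log2 signals from RMA (Robust Multichip Average), which corrects background, normalizes by quantiles and summarizes the probes of a probe set. No source used here names its version. The table holds 45101 probe sets, of which 45037 entered the test, without a filter, after removal of the 64 array controls. The platform annotation gave 34945 of them 1 gene, 932 several and 9160 none, and 34741 of the first were matched by gene number to RefSeq (GRCm38.p6) for current symbols.

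The groups were compared by two-sided moderated tests (lmFit, then eBayes) in limma 3.58.1 under R 4.3.3, with no covariate. Benjamini-Hochberg adjustment ran over every tested probe set, with a threshold of 0.05. The fit was tested on simulated data. The number of arrays limits the precision: the median 95% interval reached 0.45 to either side. A brighter probe set is not taken for a more abundant transcript, since probes bind unequally; brightness served to choose probe sets and to mark dim ones. The subunits and gene lists were chosen with earlier results of these data known. The text names all 10 subunits, the 2 genes with the largest difference of each adhesion or marker list and a few fixed genes. Lims1, Col4a1, Col4a2, Ogn, Trp63, Oxtr, Robo4 and Erg were named outside this rule. Genes without a probe set of 1 gene (10 of the 91 in the adhesion lists) were not analysed here. Alternatives tried were removal of probe sets dimmer than the median, a robust prior with a trend, weights on arrays, centring on medians, repeated quantile normalization, a block (fixed or random) for the number within animal identifiers, unmoderated tests, other ways to represent a gene, and leaving out each array. No pair of arrays shared more than 0.218% of values.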

Additional observations from a re-analysis of the deposited data

How the results depend on the processing

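Under all 16 alternatives 0 of the 10 integrin subunits passed at an adjusted p under 0.05 in limma, 0 were past 2-fold at an unadjusted p under 0.05, and the lowest adjusted p of a subunit was 0.642. Of 159 subunit values, 136 kept their direction and 23 turned. Itga2 alone never turned, though the filter at the median signal removed it and gave no value. The median over the subunits became 0.0480 with the mean over the probe sets of a gene, 0.0689 with the most variable probe set and 0.0313 with the fixed block described below (4 subunits lower), and ran from -0.0567 to 0.0404 with 1 array left out, where the number of lower subunits ran from 4 to 8.

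With 1 array left out the difference of Itga1 ran from -0.24 to 0.14, Itga5 from -0.35 to 0.18, Itga6 from -0.0414 to 0.24, Itga9 from -0.13 to 0.0901, Itgav from -0.0479 to 0.11 and Itgb4 from -0.39 to 0.0164. Array weights, which put 8.32 on control replicate 2 and at most 0.99 on any other, turned Itgb1 to -0.0505. A further quantile normalization turned Itgav to -0.0071, the mean over probe sets turned Itga5 to 0.12, and the most variable probe set turned Itgb3 to 0.15.

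Animal identifiers hold a number, and 2 such numbers occur in both groups, with no explanation in the labels. Deviations from the group means correlated at 0.17 and -0.02 for these pairs, so a pairing of the samples was not established. A fixed replicate block on this number leaves the comparison to those 4 arrays. With it Itga5 became 0.30, Itga6 -0.14, Itga9 0.0341, Itgav -0.0886, Itgb4 0.10 and Itgb5 0.0284. In the same fit Itga1 moved from -0.04 to -0.33 and Itgb3 from -0.22 to -0.35, without a change of sign. As a random block Itgav became -0.0021. The calls were 0 in both. RMA narrows differences of dim probe sets, which limits Itga2 and the dim Itgb1 probe sets.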
